A study of Mus musculus with 8 samples.

Results

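The genes of MHC class I antigen presentation were followed in a map of H3K4me3, a histone mark that lies mainly at the promoters of active or poised genes. The group holds 10 genes: *H2-K1*, *H2-D1*, *B2m*, *Tap1*, *Tap2*, *Tapbp*, *Psmb8*, *Psmb9*, *Nlrc5* and *Erap1*. All peaks that the deposited table assigns to these symbols were taken, which gave 18 of the 35486 listed peaks. They belong to 8 of the 10 genes, and *H2-K1* and *Tap1* have no peak assigned to them.

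H3K4me3 was profiled in tumor cells isolated by cell sorting, as CD45-CD31-EpCAM+ cells in the study's description, from lung tumors of 2 groups of mice. KL mice carry KrasLSL-G12D/+ and Lkb1fl/fl and develop tumors after intranasal Ad-Cre, an adenovirus that brings the Cre recombinase into airway and alveolar cells. KLG4m/m mice carry the same alleles and Gpx4m/m, an allele in which Cre removes a STOP cassette so that the tamoxifen-dependent recombinase DreERT2 is made and deletes *Gpx4* once tamoxifen is given. Both groups received Ad-Cre and tamoxifen, and cells were collected 10 weeks after Ad-Cre. GPX4 is the enzyme that reduces phospholipid peroxides and so protects cells from ferroptosis. The labels list 2 KL libraries (replicates 1 and 2) and 2 KLG4m/m libraries (replicates 3 and 4) for this mark. The protocol text gives a total of mice that is lower than the number of these libraries, whereas the paper's figure legend gives 2 mice per group. Which of these holds for the libraries could not be told. The p-values therefore measure the spread between libraries, which may in part be technical. The assay is named CUT&Tag, and its protocol in the labels describes release of antibody-bound chromatin by a protein A/G and micrococcal nuclease fusion.

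MHC class I molecules show peptides from inside the cell to CD8+ T cells. Proteins are cut by the proteasome, in which *Psmb8* and *Psmb9* encode interferon-inducible catalytic subunits, and the peptides are carried into the endoplasmic reticulum by the transporter made of TAP1 and TAP2. There ERAP1 trims them, tapasin (*Tapbp*) holds the empty class I molecule at the transporter, and a heavy chain (*H2-K1* or *H2-D1*) folds around the peptide together with the light chain β2-microglobulin (*B2m*). NLRC5 is a transactivator that acts on the promoters of many of these genes, and loss of class I presentation is a known route by which lung tumors escape T cells.

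Promoter windows of 300 bases, 250 before and 50 after the annotated start, were found in RefSeq (GRCm38.p6) for 8 of the 10 genes, with no window at hand for *Tap2* and *Nlrc5*. Of these windows, 5 are printed because they bear on which genes the H3K4me3 reads can be assigned to (*H2-K1* with *H2-D1*, and *Tap1* with *Psmb9*) and, for *B2m*, because it holds 3 of the motifs searched. Capitals mark GAAANNGAA (a form of the interferon element), GGGNNTTCC (a form of the κB site), TGACG (the core of a cAMP response element) and CCAAT, each on either strand. The windows lie on chr17:34000298-34000597 (minus strand) for *H2-K1*, chr17:35262844-35263143 (plus) for *H2-D1*, chr17:34187281-34187580 (minus) for *Psmb9*, chr17:34187306-34187605 (plus) for *Tap1* and chr2:122147437-122147736 (plus) for *B2m*.
H2-K1: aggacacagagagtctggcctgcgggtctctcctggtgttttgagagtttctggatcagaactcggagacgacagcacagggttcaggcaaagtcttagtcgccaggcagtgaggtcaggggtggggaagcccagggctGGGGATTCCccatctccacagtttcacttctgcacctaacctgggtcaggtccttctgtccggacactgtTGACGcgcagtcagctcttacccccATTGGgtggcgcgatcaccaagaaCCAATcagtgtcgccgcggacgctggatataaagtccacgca
H2-D1: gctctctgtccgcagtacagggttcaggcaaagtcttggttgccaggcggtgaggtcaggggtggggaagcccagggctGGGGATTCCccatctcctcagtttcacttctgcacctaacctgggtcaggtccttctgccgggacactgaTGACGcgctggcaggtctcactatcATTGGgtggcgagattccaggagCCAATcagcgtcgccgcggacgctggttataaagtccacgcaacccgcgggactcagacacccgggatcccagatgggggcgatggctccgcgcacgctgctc
Psmb9: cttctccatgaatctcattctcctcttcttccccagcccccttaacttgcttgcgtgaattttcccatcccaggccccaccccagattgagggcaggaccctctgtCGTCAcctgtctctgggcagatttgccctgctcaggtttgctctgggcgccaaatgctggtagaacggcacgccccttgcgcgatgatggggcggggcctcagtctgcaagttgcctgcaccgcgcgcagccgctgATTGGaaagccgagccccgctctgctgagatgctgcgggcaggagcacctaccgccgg
Tap1: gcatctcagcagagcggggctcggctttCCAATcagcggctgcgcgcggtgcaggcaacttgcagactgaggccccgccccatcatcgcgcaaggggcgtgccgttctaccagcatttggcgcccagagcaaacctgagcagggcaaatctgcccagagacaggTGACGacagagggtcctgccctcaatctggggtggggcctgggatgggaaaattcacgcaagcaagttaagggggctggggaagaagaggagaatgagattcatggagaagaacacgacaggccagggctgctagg
B2m: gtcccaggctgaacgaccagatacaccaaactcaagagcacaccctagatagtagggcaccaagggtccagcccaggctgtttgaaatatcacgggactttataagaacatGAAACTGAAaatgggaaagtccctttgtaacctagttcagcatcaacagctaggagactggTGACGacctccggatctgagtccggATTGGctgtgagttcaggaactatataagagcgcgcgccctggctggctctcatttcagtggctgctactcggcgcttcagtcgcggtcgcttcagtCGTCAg

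The windows of *H2-K1* and *H2-D1* matched at 206 of 228 aligned bases (90.4%), with 1 run of 47 identical bases, and both hold GGGNNTTCC, TGACG and CCAAT in that order. In the other 26 pairs of windows that do not overlap, the longest run of identical bases on the same strand was 7 to 11. The methods state that reads with a low mapping quality were removed, which can take reads away from such near-identical stretches, so the levels of *H2-D1* and other classical class I genes are uncertain. *Psmb9* and *Tap1* are read in opposite directions from 1 shared promoter, and 275 of the 300 bases of their windows are the same DNA. A peak at the *Psmb9* start therefore lies at or near the *Tap1* start as well, although the table names *Psmb9* alone. TGACG was found in 5 of the 8 windows (*B2m*, *H2-D1*, *H2-K1*, *Psmb9* and *Tap1*), against 20.8% of all 32851 windows of this length, and CCAAT in 6 of 8, against 37.4%. GAAANNGAA was found in *B2m* and *Erap1* (8.56% of all windows) and GGGNNTTCC in *H2-D1* and *H2-K1* (5.82%). Other forms of these elements were not searched, so a window without a match, as those of *H2-K1* and *H2-D1* for GAAANNGAA, may hold one. GGGCGG, a GC box, was in 4 of 8 windows, against 35.7%. For these motifs, apart from GAAANNGAA and GGGNNTTCC, the matches in *Psmb9* and *Tap1* are the same bases of the shared promoter, so each of these counts holds 1 site under both names. Within a window, the 2 copies of GAAANNGAA in *Erap1* share bases and no other matches overlap, and a match describes the sequence only.

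The libraries held 3244495 to 3463731 reads in peaks, and TMM scaling moved them by less than 1%. Counts of the pair of libraries within each group differed by slightly more than sampling noise (chi-square per degree of freedom 1.129 for KL and 1.231 for KLG4m/m) and less than libraries of different groups (2.372 to 2.799), so no library was a copy of another. A spread this close to sampling noise does not show whether the libraries of a group came from different mice, which was not tested. Levels are given as TMM-scaled CPM, which sets reads against the total in listed peaks, as mean ± SD of n = 2 libraries, and each of the 18 peaks is 400 bp long. With 2 libraries against 2, an exact two-sided permutation test of a single value cannot go below p = 0.333, so tests are those of edgeR's quasi-likelihood fit to all peaks, with adjustment over all peaks. Without KLG4m/m replicate 3 or replicate 4, edgeR called 0 peaks and 0 genes of the whole table (5486 and 5178 peaks, and 4186 and 3827 genes, had an unadjusted p under 0.05), which applies to every call named below. The *Gpx4* promoter peak had 69.6 and 68.0 CPM in KL and 88.2 and 93.2 CPM in KLG4m/m. This peak was called higher (log2 fold change 0.40, 95% interval 0.20 to 0.59, edgeR adjusted p = 0.00854). It does not test the labels, because a promoter mark does not show whether the exons behind it were removed.

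The sorted cells were checked with markers of the cell types that the sort should keep or remove. Reads were summed per gene, and over all genes 5.38% were called higher in KLG4m/m and 9.63% lower. The epithelial list summed to 355 and 358 CPM in KL and 306 and 313 CPM in KLG4m/m, with 2 of 7 genes called lower, *Epcam* (-0.82, edgeR adjusted p = 1.56e-06) and *Cdh1* (-0.38). Leukocyte genes were marked although the sort was for CD45- cells: the pan-leukocyte list summed to 390 to 396 CPM in KL and 434 to 446 CPM in KLG4m/m (1 of 5 genes with a peak called higher, 0 lower), and *Ptprc*, which encodes CD45, had 54.5 and 59.6 CPM in KL and 70.0 and 62.9 CPM in KLG4m/m. *Lcp1* alone, with 8 peaks, gave 227 and 217 CPM of the pan-leukocyte sums in KL and 235 and 234 CPM in KLG4m/m. The B cell list summed to 57.9 to 61.4 CPM in KL and 105 CPM in both KLG4m/m libraries (4 of 5 higher), the macrophage and dendritic list to 279 to 284 and 355 to 360 CPM (3 of 7 higher), and the T cell list to 200 to 218 and 240 to 247 CPM (1 of 7 higher). The endothelial list (144 to 168 CPM in KL, 135 to 156 CPM in KLG4m/m, 1 of 5 lower) and the fibroblast list (64.6 to 71.7 and 69.5 to 72.8 CPM, 1 of 3 higher) overlapped between the groups. Without KL replicate 1, edgeR called 2 epithelial, 1 pan-leukocyte, 2 B cell, 2 macrophage and dendritic and 2 T cell genes, and without KL replicate 2 it called 1, 0, 3, 2 and 0. All these cell types express class I genes, and leukocytes more than most. Their part in the values of the class I and class II genes was not tested, and a change in the number of cells of a type cannot be told apart from a change in H3K4me3 per cell.

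The class I genes carried strong H3K4me3 in the sorted cells of both groups, and their promoters did not pass the test for a difference. The 8 promoter peaks within 1 kb of a start had mean levels of 65.5 to 148 CPM, at the percentiles 72.1 to 99.7 of all 17073 such promoter peaks, whose median was 41.2 CPM. Their log2 fold changes of KLG4m/m over KL ran from 0.00 to 0.32 with a median of 0.08, beside a median of 0.00 over all promoter peaks. None of the 8 was called at an edgeR adjusted p under 0.05 in either direction, where 2.89% of promoter peaks were called higher in KLG4m/m and 8.43% lower. At an unadjusted p under 0.05 there were 2 of the 8, *Psmb9* and *Tap2*, where 28.0% of all promoter peaks passed this measure in either direction, and DESeq2 called 0 after adjustment. Both KLG4m/m libraries lay above both KL libraries at 4 of the 8 promoters (*B2m*, *Psmb9*, *Tap2* and *Tapbp*) and both KL libraries above at 0, against 27.9% and 29.1% of all promoter peaks.

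**Figure D1:**
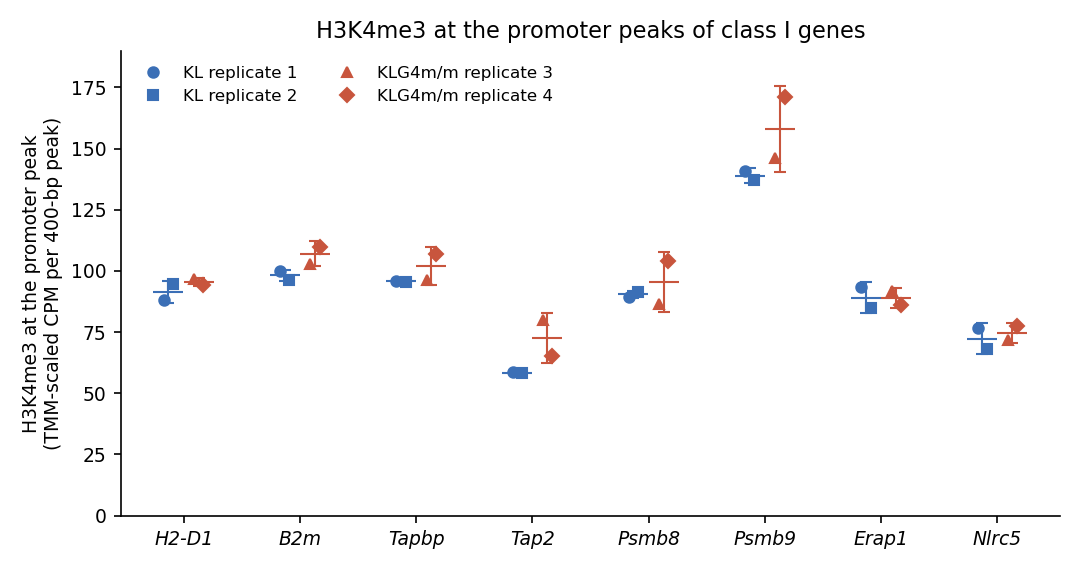
H3K4me3 at the promoter peak of 8 class I genes in TMM-scaled CPM (y axis, from 0), with 1 point per library and the mean ± SD of each group of 2 libraries. *Psmb9* is the highest (137 to 171 CPM) and *Tap2* the lowest (58.2 to 79.8 CPM), and the groups overlap at *H2-D1*, *Psmb8*, *Erap1* and *Nlrc5*.

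Over all 18 peaks, 0 were called higher and 1 lower in KLG4m/m, where 3.10% of all listed peaks were called higher and 5.52% lower. The peak called lower lies behind the end of *Tap2*. The median log2 fold change of the 18 was 0.10, beside 0.01 over all peaks. Of the 18 values, 15 were above 0, where 18107 of all 35486 peaks were. Several of the 18 peaks share a gene, so their values are not independent of each other. At an unadjusted p under 0.05 there were 4 member peaks higher and 1 lower, where 11.2% and 13.5% of all peaks had such values. Both KLG4m/m libraries were above both KL libraries at 9 peaks, both KL libraries were above at 1 and the groups overlapped at 8, where the share over all peaks was 27.5% with KLG4m/m above and 26.6% with KL above. KLG4m/m replicate 4 was the highest library at 11 of the 18 peaks and KL replicate 2 the lowest at 10. The summed level of the 8 promoter peaks was 743 and 725 CPM in KL and 772 and 815 CPM in KLG4m/m.

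**Figure D2:**
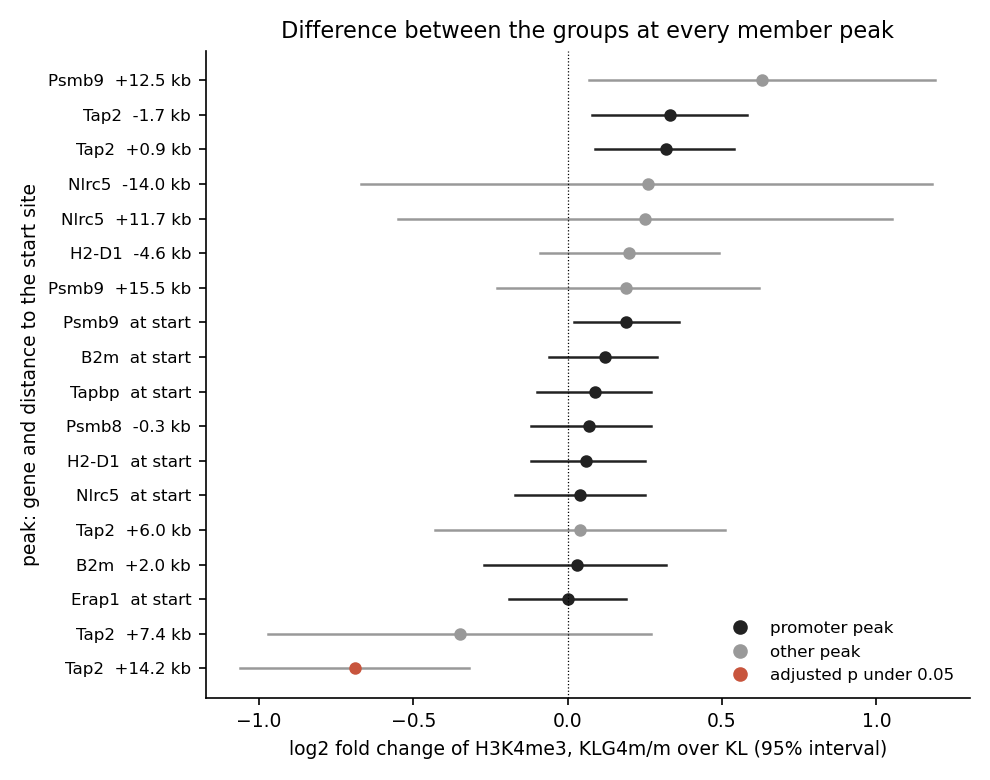
Log2 fold change of H3K4me3, KLG4m/m over KL (x axis), with its 95% interval from the edgeR fit, at the 18 peaks of the class I genes, each named by its gene and distance to the start. The *Tap2* peak 14.2 kb from the start (-0.69) is the one past the adjusted threshold, and 15 of the 18 points lie above 0, where 18107 of all 35486 peaks do.

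Among the genes of the class I molecule itself, *H2-D1* and *B2m* carried promoter peaks of like height. The *H2-D1* promoter peak (chr17:35481628-35482028 in the coordinates of the deposited table) had 88.0 and 94.5 CPM in KL and 96.6 and 94.1 CPM in KLG4m/m. The groups overlapped, since the lower KLG4m/m library was below the higher KL library. The log2 fold change was 0.06 (95% interval -0.12 to 0.25, edgeR adjusted p = 0.703). A second *H2-D1* peak, between genes and at -4641 bp from the start, held 30.5 and 30.0 CPM in KL and 34.5 and 35.0 CPM in KLG4m/m. Both KLG4m/m libraries were above both KL libraries there, with a log2 fold change of 0.20 (95% interval -0.09 to 0.49, edgeR adjusted p = 0.401).

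*B2m*, the light chain that every class I molecule needs, lies outside the histocompatibility region, on chromosome 2. Its promoter peak (chr2:121977943-121978343) had 99.8 and 96.5 CPM in KL and 103 and 110 CPM in KLG4m/m. Both KLG4m/m libraries were the higher ones, by 0.12 on the log2 scale (95% interval -0.06 to 0.29, edgeR adjusted p = 0.420). A smaller peak 2004 bp past the start had 31.1 and 35.4 CPM in KL and 33.1 and 34.7 CPM in KLG4m/m, and here the groups overlapped (log2 fold change 0.03, edgeR adjusted p = 0.937).

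No peak was assigned to *H2-K1*, the other classical heavy chain. RefSeq lists each of the symbols *H2-K1* and *H2-D1* among the synonyms of the other, and peaks were taken by symbol alone. Between its RefSeq neighbours *AA388235* and *Ring1* the table lists 1 peak, assigned to the predicted gene *Gm53999* (chr17:34219137-34219537). It had 134 and 133 CPM in KL and 140 and 135 CPM in KLG4m/m, a level close to that of the *Psmb9* promoter. The difference was 0.04 on the log2 scale (95% interval -0.12 to 0.20, edgeR adjusted p = 0.803). Whether this peak lies at the *H2-K1* start was not tested, because positions were not carried between the different genome builds of the windows and the table.

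*Tap2*, which encodes a chain of the peptide transporter, showed the widest range of differences among the members, from -0.69 to 0.33 over its 5 peaks. It had peaks before, inside and behind the gene, and the one within 1 kb of its start (chr17:34424339-34424739, 886 bp past the start) had 58.7 and 58.2 CPM in KL and 79.8 and 65.3 CPM in KLG4m/m. The KLG4m/m libraries were both higher and stood further apart from each other than the KL libraries did. The log2 fold change was 0.32 (95% interval 0.09 to 0.54, edgeR adjusted p = 0.0701). Without KLG4m/m replicate 3 it was 0.16, and without replicate 4 it was 0.45. The peak at -1696 bp from the start had 40.6 and 38.0 CPM in KL and 48.1 and 50.8 CPM in KLG4m/m, a log2 fold change of 0.33 (95% interval 0.08 to 0.58, edgeR adjusted p = 0.0938). At both of these peaks the groups were apart, and neither passed the adjusted threshold.

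The last *Tap2* peak (chr17:34437681-34438081) lies 14228 bp from the start and 2386 bp past the end of the gene, in DNA annotated as intergenic. It had 84 and 98 reads, or 24.2 and 28.2 CPM, in KL and 50 and 58 reads, or 14.5 and 18.0 CPM, in KLG4m/m. Both KLG4m/m libraries were below both KL libraries, the opposite order to the peaks at the *Tap2* start. The level fell from 26.2 ± 2.87 to 16.2 ± 2.45 CPM, a log2 fold change of -0.69 (SE 0.181, 95% interval -1.06 to -0.32, edgeR adjusted p = 0.0162). The call held without KL replicate 1 (-0.80, edgeR adjusted p = 0.0106). It was lost without KL replicate 2 (-0.58, edgeR adjusted p = 0.137), without KLG4m/m replicate 3 (-0.55, adjusted p = 0.323) and without replicate 4 (-0.85, adjusted p = 0.337), as were all calls over all peaks without either KLG4m/m library. DESeq2 gave the same size (-0.70) with an adjusted p of 0.345. The 2 peaks inside *Tap2*, in intron 5 of 11 and in exon 6 of 12, had 15 to 43 reads per library and overlapping groups (log2 fold changes 0.04 and -0.35).

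The *Tapbp* promoter peak (chr17:34138356-34138756) had 95.8 and 95.6 CPM in KL and 96.3 and 107 CPM in KLG4m/m. Replicate 3 of KLG4m/m lay within 1 CPM of the KL libraries, so the order of the groups rested on a small step. The log2 fold change was 0.09 (95% interval -0.10 to 0.27, edgeR adjusted p = 0.587). For *Tap1* no peak is listed between its neighbours *Psmb9* and *Psmb8*, and the shared promoter is described with *Psmb9*.

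The promoter shared by *Psmb9* and *Tap1* was the most strongly marked of the class I promoters. The peak (chr17:34406164-34406564) had 489 and 474 reads in KL and 503 and 552 reads in KLG4m/m, or 141 and 137 CPM against 146 and 171 CPM. Its mean stood at percentile 99.7 of all promoter peaks, and KLG4m/m replicate 4 stood above the rest. The level was 139 ± 2.93 CPM in KL and 158 ± 17.7 CPM in KLG4m/m, a log2 fold change of 0.19 (95% interval 0.02 to 0.36, edgeR adjusted p = 0.142). It was 0.08 without KLG4m/m replicate 4 and 0.30 without replicate 3. Behind the gene, 12476 bp from the start, a small peak of 23 and 26 reads in KL and 31 and 42 reads in KLG4m/m had the largest positive value of the 18 peaks, a log2 fold change of 0.63 (95% interval 0.07 to 1.19, edgeR adjusted p = 0.148), which was 0.35 without KLG4m/m replicate 4. Another, 15496 bp from the start, had 43 and 47 reads in KL and 50 and 49 reads in KLG4m/m (log2 fold change 0.19, edgeR adjusted p = 0.604). At all 3 peaks both KLG4m/m libraries were above both KL libraries.

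When the reads of the 3 *Psmb9* peaks were summed, the gene passed the test. It had 160 and 157 CPM in KL and 170 and 198 CPM in KLG4m/m, a log2 fold change of 0.21 (SE 0.0698, 95% interval 0.07 to 0.35, edgeR adjusted p = 0.0267 over 20871 genes), which is a fold of 1.16. The call was not kept without any 1 of the libraries: the value was 0.23 without KL replicate 1 (edgeR adjusted p = 0.0774), 0.21 without KL replicate 2 (adjusted p = 0.127), 0.32 without KLG4m/m replicate 3 (adjusted p = 0.147) and 0.10 without replicate 4 (adjusted p = 0.483). DESeq2 gave 0.22 with an adjusted p of 0.357, and the promoter peak alone gave no call.

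*Psmb8*, the other immunoproteasome subunit of the group, had a promoter peak (chr17:34416475-34416875) of 89.5 and 91.3 CPM in KL and 86.7 and 104 CPM in KLG4m/m. One KLG4m/m library was the lowest and the other the highest of the 4. The log2 fold change was 0.07 (95% interval -0.12 to 0.27, edgeR adjusted p = 0.674). The difference between *Psmb8* and *Psmb9* was not tested.

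*Erap1*, the trimming aminopeptidase, and *Nlrc5*, the transactivator, lie outside the histocompatibility region too. The *Erap1* promoter peak (chr13:74787897-74788297) had 93.5 and 84.7 CPM in KL and 91.9 and 86.1 CPM in KLG4m/m, with both KLG4m/m values between the KL values. The log2 fold change was 0.00 (95% interval -0.19 to 0.19, edgeR adjusted p = 1.00). The *Nlrc5* promoter peak (chr8:95160590-95160990) had 76.8 and 68.0 CPM in KL and 71.6 and 77.4 CPM in KLG4m/m, again with overlap (log2 fold change 0.04, 95% interval -0.17 to 0.25, edgeR adjusted p = 0.848). The 2 other *Nlrc5* peaks, in introns 2 and 15 of 52, had 9 to 21 reads per library, and their intervals were wide, from -0.67 to 1.18 and from -0.55 to 1.05.

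Over the 8 genes with summed reads, 1 was called higher (*Psmb9*) and 0 lower, where 5.38% of all genes were called higher and 9.63% lower. Their log2 fold changes ran from 0.00 (*Erap1*) to 0.21 (*Psmb9*) with a median of 0.09, beside 0.00 over all genes. In order of summed level, *Psmb9* (171 CPM) was followed by *Tap2* (151), *B2m* (136), *H2-D1* (126), *Tapbp* (98.7), *Psmb8* (92.9), *Erap1* (89.1) and *Nlrc5* (81.0). These sums cover 1 to 5 peaks per gene, so they are not levels per length. Per promoter peak of equal length the order was *Psmb9* (148 CPM), *B2m* (102), *Tapbp* (98.7), *H2-D1* (93.3), *Psmb8* (92.9), *Erap1* (89.0), *Nlrc5* (73.5) and *Tap2* (65.5). From *B2m* to *Erap1* the ranges over the 4 libraries of each neighbouring pair overlapped, as did those of *Nlrc5* and *Tap2*, whereas *Psmb9* stood above *B2m* and *Erap1* above *Nlrc5* in every library.

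The major histocompatibility region was taken from the first to the last member peak on chromosome 17 (1.34 Mb), and it holds 12 of the 18 member peaks. It holds 118 peaks of 84 genes, with a median log2 fold change of 0.04. Of these peaks, 4 (3.39%) were called higher and 12 (10.2%) lower in KLG4m/m, where 3.10% and 5.52% of all peaks were. Of promoter peaks within 1 kb, a type common in this region, 2.89% were called higher and 8.43% lower. The median level was 36.5 CPM in the region and 13.4 CPM over all peaks. Of the 12 lower, 1 was the distal *Tap2* peak and 3 were promoters of class II genes, whose products present peptides to CD4+ T cells: *H2-DMb1* (-0.67), *H2-Aa* (-0.64) and *H2-Eb1* (-0.82). The *Tap2*, *Psmb8* and *Psmb9* genes stand between such class II genes along the chromosome. The *Psmb8* promoter peak, at 0.07, and the *Psmb9* promoter peak, at 0.19, lay between those of *H2-DMb1* and *H2-Aa*. The class II promoter peaks of *H2-Ob* (0.23) and *H2-Ab1* (0.01) lay in the same stretch and were not called. Of all 7 promoter peaks of the class II list, 3 had values above 0, with *H2-Oa* (0.43) the highest, and 4 below. The difference between members and class II genes was not tested. DESeq2 called 1 peak of the region.

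**Figure D3:**
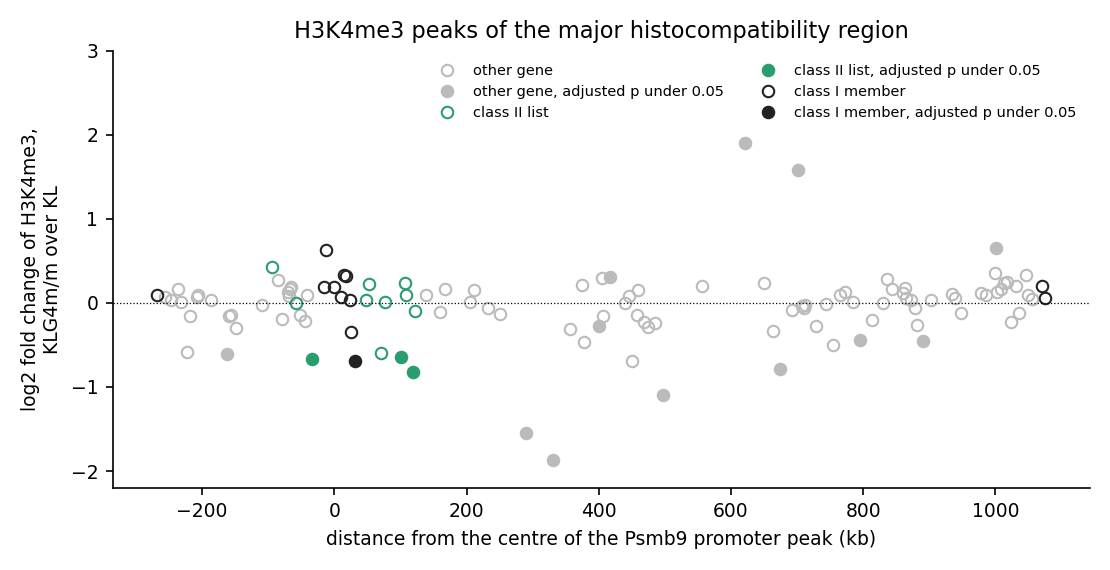
Log2 fold change of H3K4me3, KLG4m/m over KL (y axis), at the 118 peaks of the histocompatibility region by distance from the centre of the *Psmb9* promoter peak in kb (x axis), with filled points for an edgeR adjusted p under 0.05. Of the 12 black member points 1 is filled and below 0 (*Tap2*, -0.69), and of the 12 green points of the class II list 3 are filled, all below 0.

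The other genes of the pathway were taken as lists, with reads summed over the peaks of each gene. Over all genes with summed reads, 5.38% were called higher and 9.63% lower. Of the 14 other class I genes with a peak, 0 were called higher and 1 lower, with a median log2 fold change of 0.02. The 1 lower was *H2-M2*, a nonclassical class I gene with low levels (8.94 and 6.62 CPM in KL, 2.91 and 1.85 CPM in KLG4m/m, log2 fold change -1.69, edgeR adjusted p = 0.00104), and it kept the call without either KL library. None of the 12 other processing and loading genes with a peak was called (median 0.09, range -0.18 to 0.25) by edgeR, and 2 had an unadjusted p under 0.05. Of all 20871 genes, 6014 had an unadjusted edgeR p under 0.05. *Psme1* and *Psme2*, subunits of the proteasome activator, are in this list, each with a value of 0.16. None of the 3 constitutive proteasome subunits that PSMB8, PSMB9 and PSMB10 replace was called either (*Psmb5* 0.23, *Psmb6* -0.06 and *Psmb7* 0.00), with 1 at an unadjusted p under 0.05. DESeq2 called 0 in each of these 3 lists, and limma called 1, 0 and 0.

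Of the 15 genes of interferon signalling and class I regulation with a peak, 2 were called higher and 1 lower, with a median of 0.12. Over all genes, 5.38% were called higher and 9.63% lower. *Ifngr1*, a chain of the interferon-γ receptor, had 163 and 143 CPM in KL and 190 and 182 CPM in KLG4m/m (log2 fold change 0.28, edgeR adjusted p = 0.00191). *Irf1*, a transcription factor that activates class I genes after interferon, had 114 and 113 CPM in KL and 130 and 138 CPM in KLG4m/m (0.24, edgeR adjusted p = 0.0284). *Irf2*, which binds the same DNA elements, had 63.4 and 64.2 CPM in KL and 43.6 and 45.6 CPM in KLG4m/m (-0.52, edgeR adjusted p = 6.81e-04). In all 3 genes the libraries of the groups did not overlap. Of all 20871 genes, 5833 had both KLG4m/m libraries above and 6000 had both KL libraries above. The order comes from the libraries that gave the calls, so it is not separate evidence. Of these 3 calls, edgeR made 2 without KL replicate 1 (*Ifngr1* and *Irf2*) and 1 without KL replicate 2 (*Irf2*), and DESeq2 made 0. Of 13 interferon-stimulated genes with a peak, none was called by edgeR, DESeq2 or limma and 2 had an unadjusted edgeR p under 0.05, where 6014 of all 20871 genes did. Their median was 0.00, with a range from -0.32 (*Ifit3*) to 0.17 (*Irf7*) over the interferon-stimulated genes.

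Of the 9 genes of the class II list, 0 were called higher and 5 lower, with a median log2 fold change of -0.34. Over all genes, 5.38% were called higher and 9.63% lower. The list was chosen with earlier results of these data known, so the count of 5 lower is not separate evidence. The class II genes *H2-DMb2* (log2 fold changes -0.14, -0.21 and 0.10 at its peaks), *H2-Eb2* (0.09) and *H2-Ea* (-0.11), not in the list, had no called peak in the histocompatibility region. *H2-DMb1*, a chain of the class II peptide editor, had 58.2 and 57.9 CPM in KL and 33.4 and 39.8 CPM in KLG4m/m (-0.67, edgeR adjusted p = 3.56e-05). *H2-Eb1*, a class II β chain, followed (-0.43, edgeR adjusted p = 5.83e-04). The others were *Ciita*, the class II transactivator and a relative of NLRC5 (-0.47, edgeR adjusted p = 0.0403), *H2-Aa* (-0.34, adjusted p = 0.0486) and *Cd74*, the invariant chain (-0.43, adjusted p = 0.0490). *Ciita* has 1 peak, and the test over all peaks did not call that peak (edgeR adjusted p = 0.0678). *H2-Oa*, named after its values were seen, had a value in the other direction (24.2 and 24.5 CPM in KL, 32.8 and 32.7 CPM in KLG4m/m, 0.43, edgeR adjusted p = 0.0505), and with genes of at least 10 CPM alone it was called higher beside the 5 lower. Of the 5 calls, edgeR made 3 without KL replicate 1, 2 without KL replicate 2 and 0 without either KLG4m/m library, and DESeq2 made 1. Beside this, the summed levels of the epithelial markers were lower and those of the B cell, macrophage and dendritic markers higher in both KLG4m/m libraries, as given above.

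**Figure D4:**
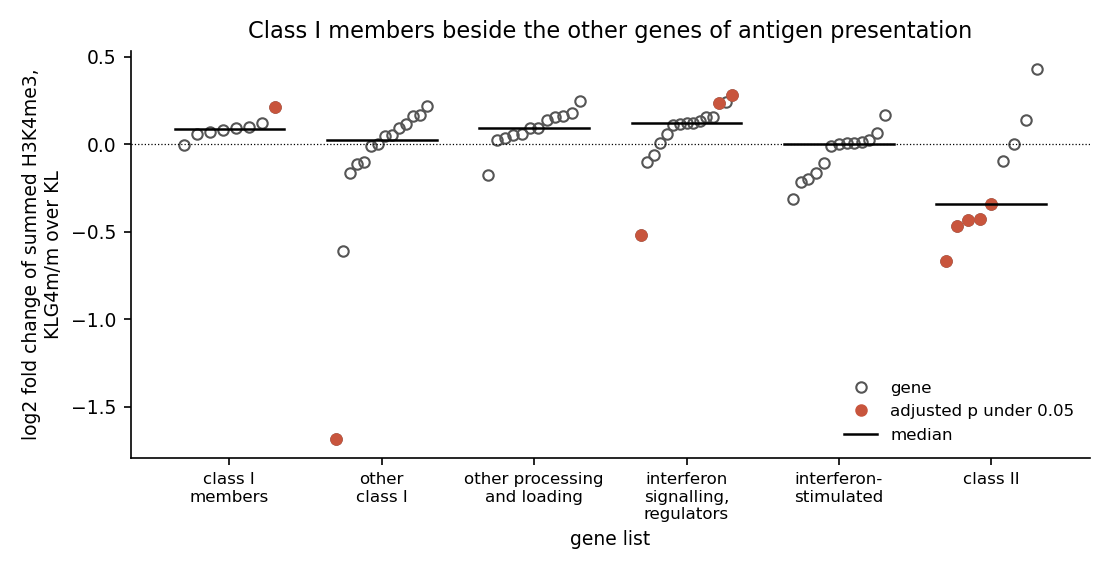
Log2 fold change of summed H3K4me3, KLG4m/m over KL (y axis), for each gene of the class I members and of 5 lists (x axis), with a line at each list's median and filled points for an edgeR adjusted p under 0.05. The medians of the members and of the first 4 lists lie between 0.00 and 0.12, and the class II median lies at -0.34.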

How the data were processed

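The authors trimmed reads with Trim Galore (0.6.10), mapped them with BWA (0.7.15), removed duplicates with Picard (2.17.3) and reads of low mapping quality, called peaks with MACS2 (2.2.7.1) and annotated them with HOMER (4.11.1), per the labels and methods. The deposited table holds whole read counts per peak and library, without normalization, and the authors' distance to the nearest start (a signed number of bp). Its 4 CPM columns and the authors' comparison columns (log2 fold change, F, p and adjusted p) were not used. Contig names in the table belong to GRCm39, while the sequence windows are GRCm38.p6, so no coordinates were joined between them, and RefSeq was used for gene order alone. H3K27ac was not analysed here.

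Counts of all 35486 peaks, and sums over the peaks of each of 20871 genes, were fitted with edgeR 4.0.16 (quasi-likelihood, TMM, no covariate, no filter) in R 4.3.3, with two-sided p-values adjusted by Benjamini-Hochberg across the whole table and called under 0.05. The code was tested on simulated data. SE is the log2 fold change divided by the root of F. Alternatives were DESeq2 1.42.0, scaling by total reads, a mean of at least 10 CPM, limma 3.58.1 on log2(CPM + 1) and log2(CPM + 4), the promoter peak alone and leaving out each library. All member peaks are reported, and list genes past the threshold are named, at most 5 in each direction. The members and lists were chosen with earlier results of these data known. Intervals cover the spread between libraries as fitted, and peaks with few reads carry a large counting error. The result of 1 motif search is not reported here.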

Additional observations from a re-analysis of the deposited data

How the results depend on the processing

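Of the 18 member peaks 1 was past the threshold. Scaling by total reads, a mean of at least 10 CPM and limma with either pseudocount left that count at 1, DESeq2 gave 0, an unadjusted p under 0.05 gave 5, and leaving out each library gave 0 to 1. For member genes the count of 1 became 0 with DESeq2 and was 0 to 0 when each library was left out. Over all peaks the count of 3059 became 283 with DESeq2 and 0 to 2161 without 1 library, with 5486 and 5178 peaks at an unadjusted p under 0.05 in edgeR without KLG4m/m replicate 3 and 4. In the histocompatibility region 16 calls became 1 with DESeq2 and 0 to 9 without 1 library, and for the class II genes, whose alternatives were chosen after seeing the data, 5 became 1 and 0 to 3 (6, with 1 higher, at a mean of at least 10 CPM). The cause was not tested.

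Some values changed sign, all without a call, most of them near 0. Leaving out each library gave log2 fold changes of -0.0658 to 0.12 at the *B2m* peak 2004 bp past the start, -0.0699 to 0.0729 at *Erap1*, -0.045 to 0.13 at the *Nlrc5* promoter, -0.24 to 0.59 in *Nlrc5* intron 15, -0.0575 to 0.20 at *Psmb8*, -0.0786 to 0.15 in *Tap2* intron 5 and -1.01 to 0.0779 in *Tap2* exon 6, and for summed reads -0.065 to 0.0764 for *Erap1* (0.0005 with DESeq2), -0.023 to 0.16 for *Nlrc5* and -0.0582 to 0.20 for *Psmb8*. No paired analysis was possible because KL carries the replicate numbers 1 and 2 and KLG4m/m 3 and 4, so the groups share none.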
